A study of Anopheles gambiae with 9 samples.

Results

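Transcripts of 10 genes of axoneme structure and dynein assembly were followed through the pedicels of *Anopheles gambiae*, out of 13845 genes in the deposited table. The pedicel is the antennal segment that houses the Johnston's organ, the mosquito ear. The 10 genes encode Tektin-3 (AGAP000219), Tektin-2 (AGAP008275), Piercer of microtubule wall 1 (AGAP013430), a pair of Stabilizer of axonemal microtubules 1-like proteins (SAXO1-like, AGAP012726 and AGAP003120), the cilia- and flagella-associated proteins CFAP206-like (AGAP008870) and CFAP44-like (AGAP006735), the Dynein assembly factor 1 homolog (DNAAF1 homolog, AGAP009594), Protein kintoun (AGAP005250) and Tctex1 domain-containing protein 2-like (Tctex1D2-like, AGAP009318). They were picked by name from a set that the study had called, on these same libraries, higher in males and in intersex mutants than in control females and not different between males and mutants. All 3 comparisons were therefore used in the choice, and the differences below are a description with no test. Each gene has 1 transcript in the table, and all 10 transcripts passed the filter on low counts.

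The 3 groups were control females (*dsxF*+/+ *XX*), intersex mutants (*dsxF*-/- *XX*) that lack an intact female isoform of doublesex, and control males (*dsxF*+/+ *XY*). There were 3 libraries per group, given as biological repeats, each made from pooled pedicels of mosquitoes 2 to 3 days old at the start of 3 days of entrainment to a light/dark cycle. The controls were of the G3 strain and were sex separated as pupae, whereas the mutants came from a separate mutant strain and were not sex separated. The effects of the mutation, of strain background and of rearing cannot be told apart. The comparisons are written MvF for *dsxF*+/+ *XY* over *dsxF*+/+ *XX*, IvF for *dsxF*-/- *XX* over *dsxF*+/+ *XX* and MvI for *dsxF*+/+ *XY* over *dsxF*-/- *XX*. They share libraries, so they are not independent of each other.

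An axoneme is the microtubule core of a cilium. Its microtubules are lined on the inside by tektins and other inner proteins, and motile axonemes carry dynein arms that are put together in the cytoplasm by assembly factors before they are carried into the cilium. In insects such as *Drosophila*, the sensory neurons of the Johnston's organ end in cilia that have axonemes with dynein arms, and dynein motors have been tied to active hearing.

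Library totals were 15912671 to 17188581 counts for control females, 14177255 to 17477058 for mutants and 14708863 to 18379886 for males. In *dsxF*+/+ *XX* replicate 3, 23.6% of the counts came from the top 10 transcripts, and this share was 8.95% to 14.2% in the other 8 libraries. The levels below are normalized counts, which are counts scaled by TMM library sizes and not divided by transcript length. They serve to compare groups within a gene and not genes with each other. The libraries were made from whole pedicels, so more cells of a type and more RNA per cell cannot be told apart.

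All 10 transcripts had higher levels in every *dsxF*+/+ *XY* library than in any *dsxF*+/+ *XX* library, and all 10 had higher levels in every *dsxF*-/- *XX* library than in any *dsxF*+/+ *XX* library. Of all 12379 transcripts tested, 20.1% had every male library above every control female library in this way, and 13.4% had every mutant library above. The fitted folds ranged from 1.56 (Tektin-2) to 11.1 (Piercer 1) in MvF and from 1.66 (Kintoun) to 10.5 (Piercer 1) in IvF. By edgeR's quasi-likelihood test over all transcripts, with a Benjamini-Hochberg adjusted p under 0.05 as the threshold, 10 of 10 were called higher in MvF (11.7% of all tested) and 9 of 10 in IvF (4.18% of all tested), the exception being CFAP44-like. Both calls together were made for 3.52% of all tested transcripts. These calls describe how the genes were picked and nothing is read from them. The median log2 fold change of the 10 was 2.11 in MvF, 1.85 in IvF and 0.23 in MvI, against 0.02, 0.00 and 0.02 over all tested transcripts.

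**Figure D1:**
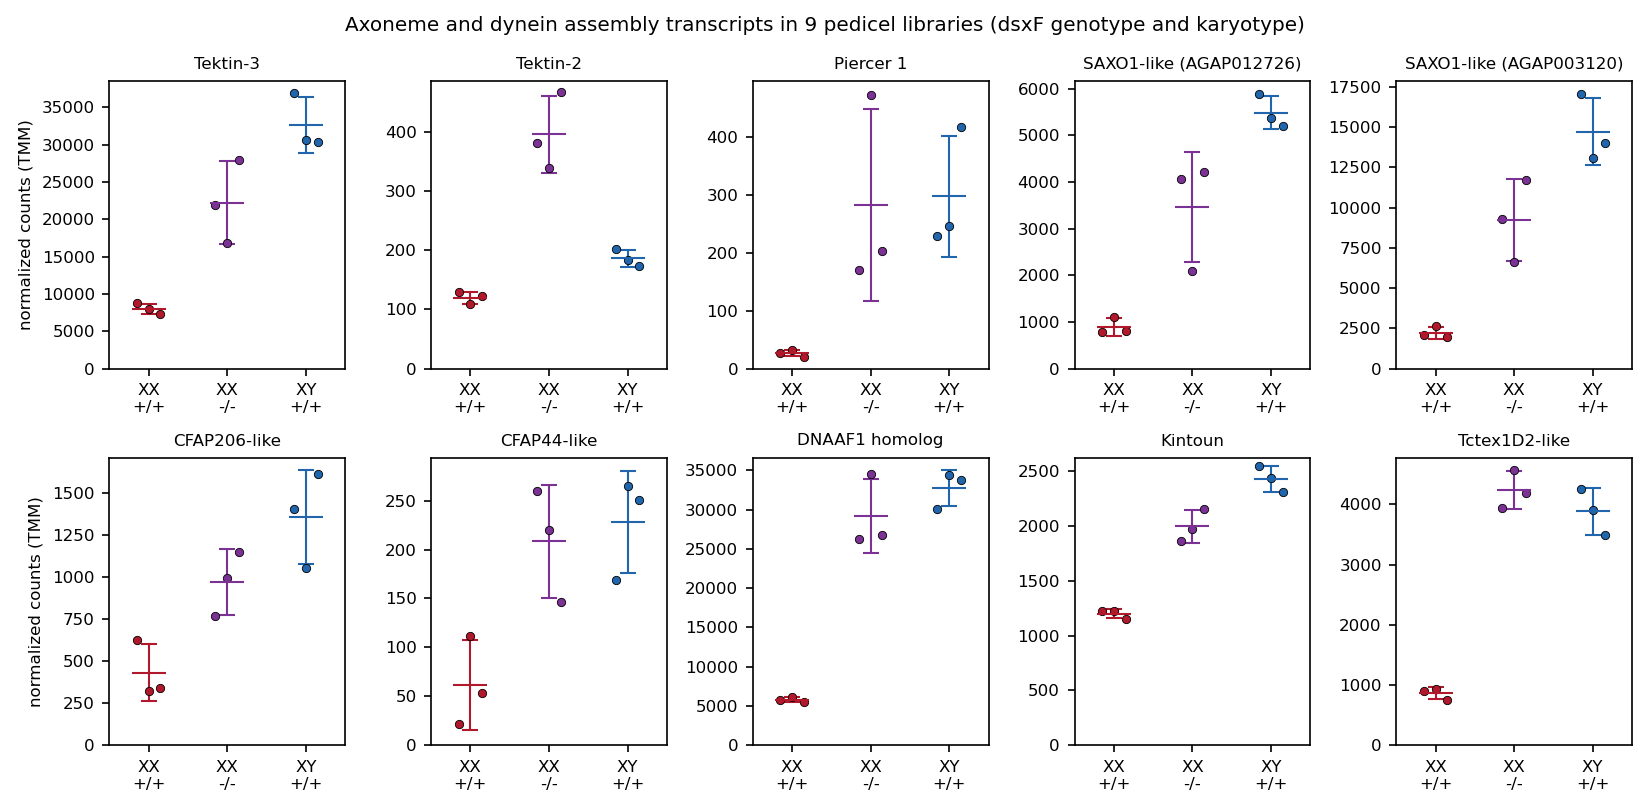
Normalized counts (y axis, linear, from 0) of the 10 transcripts in control female (*XX* +/+), mutant (*XX* -/-) and male (*XY* +/+) pedicels, with 1 point per library and the mean and SD of 3 libraries per group. In every panel the 3 *dsxF*+/+ *XX* points lie below the other 6, and in the Tektin-2 panel alone the *dsxF*-/- *XX* points all lie above the *dsxF*+/+ *XY* points.

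The male and the mutant levels lay closer together. In MvI, 4 of the 10 transcripts (Tektin-3, both SAXO1-like transcripts and Kintoun) had every male library above every mutant library, a pattern that 11.6% of all tested transcripts showed. The SAXO1-like transcripts share reads, as described below, so they are not separate measurements among these 4. Tektin-2 had every male library below every mutant library, as did 16.4% of all tested, and the libraries of the other 5 overlapped. edgeR called 0 of the 10 higher in MvI (1.3% of all tested) and 1 lower, Tektin-2 (6.09% of all tested). At an unadjusted p under 0.05 edgeR had 3 higher. DESeq2 and limma-voom called 0 higher and, like edgeR, Tektin-2 lower. The shares of all tested transcripts at the unadjusted threshold and by these tools are not given here, so nothing is read from those counts. The edgeR call of Tektin-2 was lost when *dsxF*-/- *XX* replicate 3 or *dsxF*+/+ *XY* replicate 3 was left out, with log2 fold changes of −0.95 and −1.06.

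The tektins form filaments along the inside of the microtubule wall, as known from cilia and sperm flagella of other animals. Tektin-3 stood at 8732, 7942 and 7312 normalized counts in *dsxF*+/+ *XX* replicates 1, 2 and 3, at 21877, 16835 and 27898 in *dsxF*-/- *XX* and at 36969, 30639 and 30355 in *dsxF*+/+ *XY*. The groups did not overlap, and the mutant took an intermediate level. Its log2 fold change was 2.03 (standard error 0.23) in MvF, 1.47 (0.23) in IvF and 0.56 (0.22) in MvI.

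Tektin-2 followed another order. It stood at 129, 109 and 122 normalized counts in control females, at 381, 339 and 467 in mutants and at 202, 184 and 174 in males. The highest male library was therefore below the lowest mutant library, and the group means were 120 ± 10.2 in control females, 396 ± 65.2 in mutants and 187 ± 14.5 in males (SD, n = 3). The log2 fold change was 0.64 (standard error 0.20) in MvF, 1.72 (0.20) in IvF and −1.08 (0.20) in MvI, with a 95% confidence interval of −1.54 to −0.63 for the last. Transcripts called both higher in IvF and lower in MvI numbered 45 of the 12379 tested (0.364%), and Tektin-2 was 1 of 3 (0.0242%) that were called higher in MvF as well. Its MvF difference was near the threshold, and the call was lost in 12 of 17 alternative settings fitted on transcripts. The study placed Tektin-2 in its set not different between males and mutants. Here DESeq2, the tool the study used, gave −1.08 in MvI and called Tektin-2 lower. This comparison was used in the choice of the genes, so the call is a description. The reason for the disagreement was not tested.

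The unequal change of the tektins showed within libraries too, where depth cancels. The log2 ratio of Tektin-3 to Tektin-2 was 6.08, 6.18 and 5.90 in control females, 5.84, 5.63 and 5.90 in mutants and 7.51, 7.38 and 7.45 in males. Every male library lay above all 6 others, by a mean of 1.39 over *dsxF*+/+ *XX* and of 1.65 over *dsxF*-/- *XX*, with within-group SDs of 0.07 to 0.14. Between the female genotypes the mean ratio differed by −0.26, and the libraries were separated by a gap smaller than their spread (5.899 in the highest mutant library and 5.900 in the lowest control female library).

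Piercer 1 belongs to the inner proteins of the microtubule wall and, in vertebrates, is needed for outer dynein arms to sit on the axoneme. It stood at 27.4, 32.2 and 20.7 normalized counts in control females, at 171, 474 and 204 in mutants and at 229, 247 and 418 in males. These were the highest folds of the 10, with log2 fold changes of 3.47 (standard error 0.46) in MvF and 3.39 (0.46) in IvF, and the male and mutant libraries overlapped (MvI 0.07, standard error 0.41, 95% confidence interval −0.85 to 1.00). The raw counts in *dsxF*+/+ *XX* were only 30, 34 and 18, so counting error alone gives a coefficient of variation of 23.6% at the lowest. One mutant library, replicate 2, held more than the other mutant libraries together, and the coefficient of variation among mutant libraries was 58.7%.

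The SAXO1-like proteins are named after a human protein that binds and stabilizes axonemal microtubules. AGAP012726 stood at 776, 1106 and 795 normalized counts in control females, at 4073, 2093 and 4216 in mutants and at 5894, 5380 and 5192 in males. AGAP003120 stood at 2056, 2654 and 1973 in control females, at 9316, 6643 and 11708 in mutants and at 17086, 13116 and 14001 in males. In both transcripts the order was control female, mutant, male with no overlap, and *dsxF*-/- *XX* replicate 2 was the lowest mutant library. The log2 fold changes of AGAP012726 were 2.62 (standard error 0.30) in MvF, 1.95 (0.29) in IvF and 0.67 (0.28) in MvI, and those of AGAP003120 were 2.73 (0.26), 2.05 (0.26) and 0.68 (0.25).

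These SAXO1-like values are not separate measurements. They were the only ones of the 10 transcripts with estimated counts that were not whole numbers, in 9 of 9 libraries each, and the sum of the pair was whole to within 0.05 counts in 9 of 9 libraries, so reads were divided between them by estimation. AGAP003120 took 69.6% to 76.1% of the sum, and the log2 ratio of AGAP003120 to AGAP012726 averaged 1.33 ± 0.07 in control females, 1.44 ± 0.24 in mutants and 1.42 ± 0.13 in males (SD, n = 3), with overlap in every comparison. The sum itself averaged 3120 ± 555 normalized counts in control females, 12683 ± 3646 in mutants and 20223 ± 2413 in males. Its log2 fold changes were 2.70 (standard error 0.27) in MvF, 2.02 (0.26) in IvF and 0.67 (0.25) in MvI, which is close to those of either transcript.

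CFAP206 helps to dock a radial spoke on the axoneme in *Tetrahymena*, and CFAP44 is part of a tether of an inner dynein arm in *Chlamydomonas* and *Tetrahymena*. CFAP206-like stood at 624, 323 and 340 normalized counts in control females, at 765, 992 and 1150 in mutants and at 1402, 1054 and 1611 in males. *dsxF*+/+ *XX* replicate 1 was the high one of its group but still below every mutant library, and the male and mutant libraries overlapped. Its log2 fold changes were 1.66 (standard error 0.30), 1.17 (0.30) and 0.48 (0.29) in MvF, IvF and MvI.

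CFAP44-like was the least even of the 10 among control females. It stood at 21.0, 112 and 52.9 normalized counts in control females, at 260, 220 and 146 in mutants and at 168, 265 and 251 in males. The control female libraries spread with a coefficient of variation of 74.4%, against 27.7% in the mutants and 22.9% in the males, while the 23 raw counts of the lowest library give 20.9% from counting alone. The log2 fold changes were 1.88 (standard error 0.53) in MvF, 1.75 (0.52) in IvF and 0.13 (0.50) in MvI. Without *dsxF*+/+ *XX* replicate 2, the highest control female library, they became 2.64 in MvF and 2.51 in IvF, and CFAP44-like was then called higher in IvF too.

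The DNAAF1 homolog and Kintoun are factors for the assembly of dynein arms in the cytoplasm, a role known for DNAAF1 from human disease and for Kintoun from fish, algae and flies. The DNAAF1 homolog stood at 5749, 6083 and 5427 normalized counts in control females, at 26212, 34555 and 26782 in mutants and at 30140, 34390 and 33838 in males. The mutant and male libraries overlapped, with the highest of the 9 values in a mutant library. The log2 fold changes were 2.51 (standard error 0.19) in MvF, 2.34 (0.19) in IvF and 0.17 (0.18) in MvI, the last with a 95% confidence interval of −0.24 to 0.58.

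Kintoun changed least of the 10 in IvF. It stood at 1221, 1228 and 1155 normalized counts in control females, at 1862, 1972 and 2159 in mutants and at 2547, 2441 and 2309 in males. The 3 groups did not overlap, and the libraries within a group were close, with coefficients of variation of 3.33%, 7.52% and 4.91%. The log2 fold changes were 1.02 (standard error 0.15) in MvF, 0.73 (0.15) in IvF and 0.28 (0.15) in MvI.

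The assembly factors thus differed in the size of their change. The log2 ratio of the DNAAF1 homolog to Kintoun was 2.24, 2.31 and 2.23 in control females, 3.82, 4.13 and 3.63 in mutants and 3.56, 3.82 and 3.87 in males. It was 1.49 higher in males and 1.60 higher in mutants than in control females, with no overlap, and the male and mutant libraries overlapped. The log2 ratio of CFAP206-like to CFAP44-like, by contrast, overlapped in every comparison, with an SD of 1.70 in *dsxF*+/+ *XX*.

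**Figure D2:**
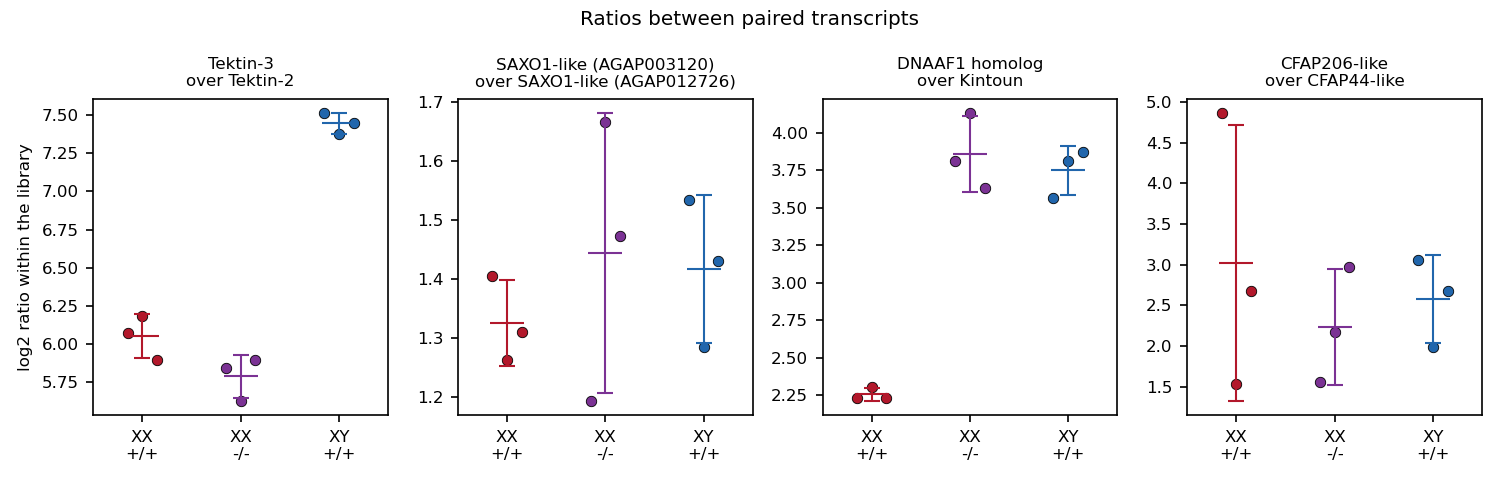
The log2 ratio between paired transcripts within a library (y axis, a separate range in each panel) in the 3 groups, with 1 point per library and the mean and SD of 3 libraries. The Tektin-3 to Tektin-2 ratio sets the males apart (7.38 to 7.51), whereas the DNAAF1 homolog to Kintoun ratio sets the control females apart (2.23 to 2.31).

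Tctex1D2-like is related to a human light chain of the dynein that moves cargo back down the cilium. It stood at 894, 932 and 744 normalized counts in control females, at 3943, 4578 and 4187 in mutants and at 4261, 3907 and 3488 in males. The mutant mean (4236 ± 321) lay above the male mean (3885 ± 387, SD, n = 3), within the spread of the libraries. Its log2 fold changes were 2.18 (standard error 0.18) in MvF, 2.31 (0.18) in IvF and −0.12 (0.17) in MvI, the last with a 95% confidence interval of −0.52 to 0.27.

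**Figure D3:**
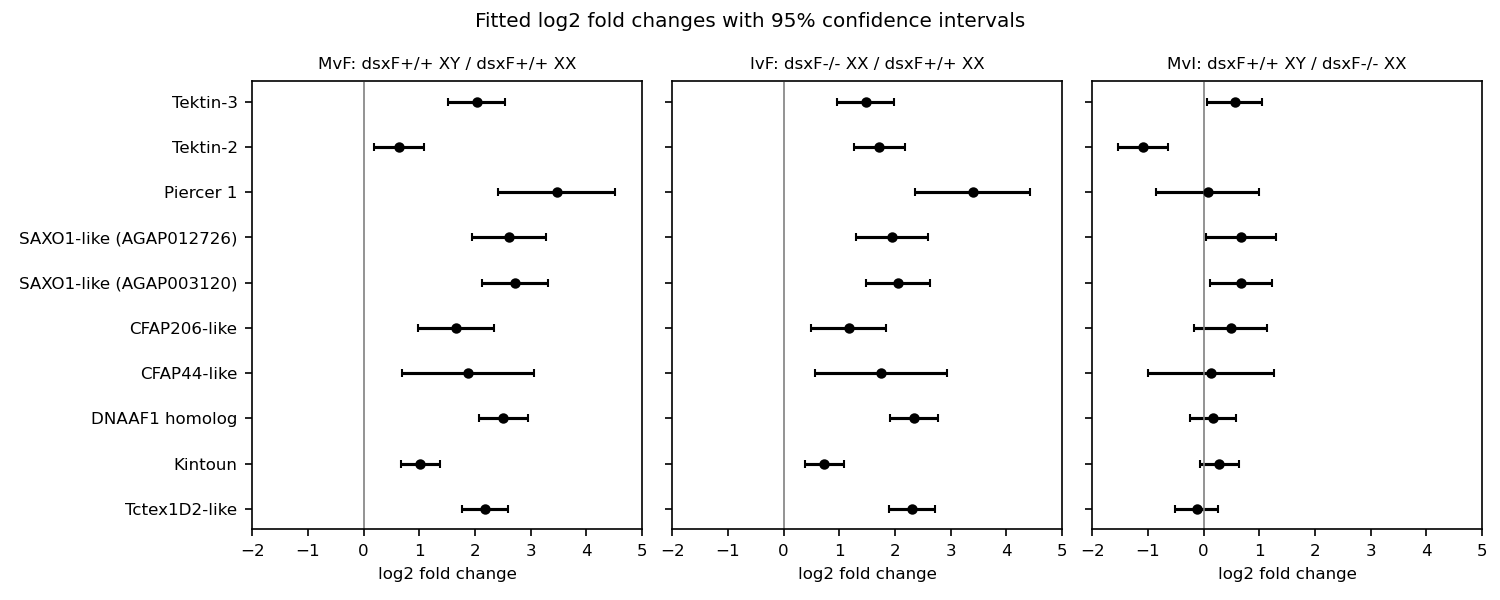
Fitted log2 fold changes (x axis) of the 10 transcripts in MvF, IvF and MvI, as points with 95% confidence intervals from edgeR. In MvF and IvF every interval lies above 0, and in MvI the intervals of Tektin-3 and the SAXO1-like transcripts lie above 0 and that of Tektin-2 below it (−1.54 to −0.63).

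The mutant level was also placed on a scale where 0 is the *dsxF*+/+ *XX* mean and 1 the *dsxF*+/+ *XY* mean of log2 CPM (counts scaled to library size). Tektin-3 (0.71), CFAP206-like (0.72), Kintoun (0.72) and the SAXO1-like transcripts (0.72 and 0.74) sat together below the male level. CFAP44-like (0.93), the DNAAF1 homolog (0.93) and Piercer 1 (0.95) were nearer to it, with at least 1 mutant library above the male mean in each. Tctex1D2-like (1.06) had all 3 mutant libraries above the male mean, at 1.01, 1.11 and 1.05.

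Tektin-2 sat far outside this range at 2.69, with single libraries at 2.62, 2.36 and 3.08, on the shortest span between the controls (0.64 log2 units). The median position of the 10 was 0.84, and that of all 1453 transcripts called higher in MvF was 0.64 with quartiles of 0.48 and 0.79. Among those 1453, 7.85% had a position above 1, as had Tektin-2 and Tctex1D2-like here. A set picked for a high IvF and a low MvI difference is placed high on this scale by the choice itself.

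**Figure D4:**
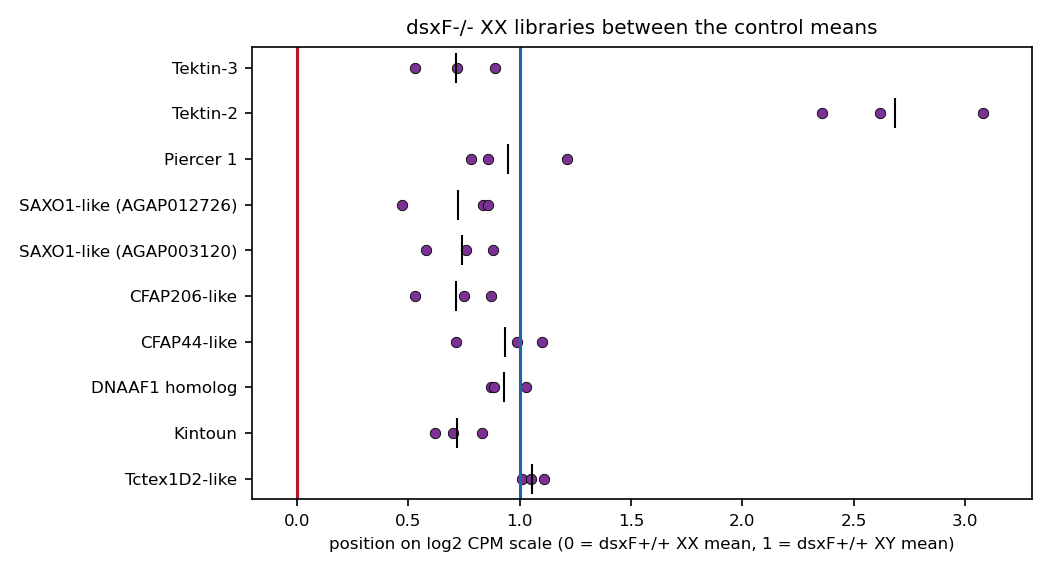
Position of the *dsxF*-/- *XX* libraries (purple points, 1 per library, black tick at the mean) between the *dsxF*+/+ *XX* mean (0, red line) and the *dsxF*+/+ *XY* mean (1, blue line) on the log2 CPM scale (x axis) for the 10 transcripts. Of the 10 means, 8 lie between 0.71 and 0.95, Tctex1D2-like lies at 1.06 and Tektin-2 at 2.69.

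Transcripts of the ciliated neurons moved in the same direction. The transcript of nanchung (AGAP012241-RA), a TRP channel subunit of chordotonal cilia, averaged 1061 ± 129 normalized counts in control females, 2887 ± 357 in mutants and 3689 ± 230 in males (SD, n = 3). It differed by 1.80 log2 units (standard error 0.18, edgeR adjusted p = 1.49e-04) in MvF, 1.45 (0.18, adjusted p = 0.00208) in IvF and 0.35 (0.18, adjusted p = 0.333) in MvI. The transcript of nompB (AGAP006324-RA), an intraflagellar transport protein that builds these cilia in flies, averaged 354 ± 60.3, 731 ± 93.8 and 674 ± 43.6 in the same order of groups. It differed by 0.93 log2 units (standard error 0.18, edgeR adjusted p = 0.00496) in MvF, 1.05 (0.19, adjusted p = 0.00931) in IvF and −0.12 (0.18, adjusted p = 0.797) in MvI. The study had singled out both on these libraries, so they are not independent evidence, and the part of a larger share of ciliated neurons in the differences of the 10 transcripts was not tested.

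Set against nanchung within each library, 5 of the 10 transcripts had higher ratios in every male library than in any control female library (Piercer 1, both SAXO1-like transcripts, the DNAAF1 homolog and Tctex1D2-like). The SAXO1-like transcripts share reads, so they are not separate measurements among these 5. Tektin-2 and Kintoun had lower ratios in every male library, by 1.17 and 0.79 log2 units, and the other 3 overlapped. Of all other tested transcripts, 0.986% had every male ratio above and 82.1% every male ratio below. In IvF the ratio was higher in every mutant library for Piercer 1 (1.81), the DNAAF1 homolog (0.89) and Tctex1D2-like (0.87), was lower for Kintoun (−0.71) and overlapped for 6, against 0.727% above and 80.7% below over all. In MvI it was lower in every male library for Tektin-2 (−1.43) and Tctex1D2-like (−0.49), higher for 0 and overlapped for 8, against 2.5% above and 33.1% below over all. A transcript that differs less than nanchung falls below in this ratio, and the 10 were picked for being high in MvF and IvF, so nothing is read from these counts.

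Against nompB, which itself differed less between the sexes, 6 of the 10 ratios were higher in every male library in MvF, 0 were lower and 4 overlapped, against 2.59% above and 59.7% below over all. In IvF 4 were higher (Tektin-2, Piercer 1, the DNAAF1 homolog and Tctex1D2-like) and 6 overlapped, against 0.978% above and 68.8% below over all. In MvI 5 were higher, 1 was lower (Tektin-2, by 0.96 log2 units) and 4 overlapped, against 16.2% above and 12.3% below over all. Piercer 1, the DNAAF1 homolog and Tctex1D2-like were above the control females by both denominators in MvF and in IvF, as were 0.452% of all tested transcripts. The choice of the 10 and the shared reads of the SAXO1-like pair bear on these counts in the same way.

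Which transcripts varied together among libraries of 1 group was not part of the choice, although the size of their spread enters the study's calls. Deviations of log2 CPM from the group mean gave 45 pairs of transcripts over 9 libraries, of which 27 had a positive Pearson r, with a median of 0.14 and a range of −0.82 to 0.91. The SAXO1-like pair (r = 0.91) shares reads. Piercer 1 with the DNAAF1 homolog (r = 0.89) and Tektin-3 with Tektin-2 (r = 0.89) followed. These r rest largely on few mutant libraries. Piercer 1 (0.89) and the DNAAF1 homolog (0.26) deviated most in *dsxF*-/- *XX* replicate 2. Tektin-3 (−0.37 and 0.36) and Tektin-2 (−0.21 and 0.25) deviated most in *dsxF*-/- *XX* replicates 2 and 3. The r of other pairs of transcripts is not given here. All values in a library share its depth and scaling, and r is given as a description. The deviations sum to 0 within each group, so fewer than 9 of them are free to vary.

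In some libraries several of the 10 deviated in the same direction. In *dsxF*+/+ *XX* replicate 3, the library whose counts were most taken up by few transcripts, 8 of the 10 were below their group mean. Their median deviation was −0.14, against 0.01 over all tested transcripts, while nanchung deviated by −0.15 and nompB by 0.27. *dsxF*-/- *XX* replicate 2 split the genes instead, as it was the lowest mutant library for both tektins and both SAXO1-like transcripts and the highest for Piercer 1, the DNAAF1 homolog and Tctex1D2-like. CFAP44-like deviated most, by −1.23 in *dsxF*+/+ *XX* replicate 1 and by 1.15 in replicate 2.

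**Figure D5:**
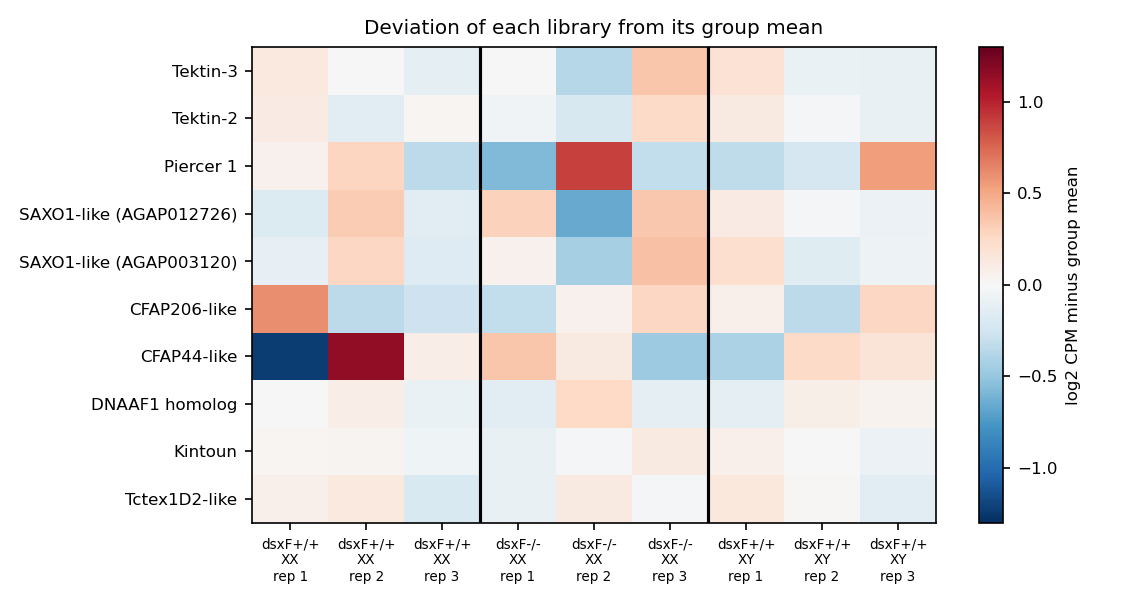
Deviation of each of the 9 libraries (columns) from its group mean in log2 CPM for the 10 transcripts (rows), with blue below and red above the mean. The strongest colours are those of CFAP44-like in *dsxF*+/+ *XX* replicates 1 and 2 (−1.23 and 1.15), and *dsxF*-/- *XX* replicate 2 is blue for tektins and SAXO1-like transcripts and red for Piercer 1.

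Each transcript was also compared with the mean profile of the other 9 over the 9 libraries. Pearson r was highest for the DNAAF1 homolog (0.99) and Tctex1D2-like (0.98) and lowest for CFAP44-like (0.82) and Tektin-2 (0.67). The profiles hold the group differences by which the genes were picked, so a high r is in part a result of the choice.

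Of 11790 transcripts with a mean of at least 1 CPM, AGAP000277-RA (r = 0.998) and AGAP010787-RA (r = 0.996) were most like the mean profile of the 10, and both are without a name here. AGAP000277-RA stood at 934, 1029 and 861 normalized counts in control females, at 7189, 7495 and 9583 in mutants and at 9407, 8775 and 9194 in males. Among transcripts with a name, the nearest were nanchung (r = 0.989), a Meckelin-like transcript (AGAP002548-RA, r = 0.981), Cuticular protein RR-1 family 58 (AGAP006830-RA, r = 0.979), PH-sensitive chloride channel 2 (AGAP009616-RA, r = 0.979) and Protein hook (AGAP008854-RA, r = 0.977). Most of these r rest on the step from *dsxF*+/+ *XX* to the other groups, and the size of that step varied widely. Protein hook, a microtubule-binding adaptor in flies, stood between 529 and 598 normalized counts in the control female libraries and between 880 and 958 in the male ones, whereas PH-sensitive chloride channel 2 stood between 5.68 and 18.3 and between 571 and 852.

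Dynein transcripts were taken from a list that the study had drawn up from annotation and expression in male pedicels and testes, without the 10 genes above. Of its 43 transcripts (37 genes), 38 were tested. By edgeR at an adjusted p under 0.05, 12 were called higher and 4 lower in MvF, where 11.7% of all tested transcripts were called higher and 18.1% lower. In IvF 12 were called higher and 0 lower, against 4.18% and 6.87% of all tested. At an unadjusted p under 0.05 edgeR also had 0 lower in IvF, as had DESeq2 and limma-voom at the adjusted threshold. The shares of all tested transcripts at these settings are not given here, so nothing is read from those counts. In MvI 2 were called higher and 5 lower, against 1.3% and 6.09%. The 12 higher in IvF became 19 without control female replicate 2, 5 without control female replicate 3 and 6 without mutant replicate 1 or 3, and the 12 higher in MvF became 19 without control female replicate 2. The 2 higher in MvI became 4 without control female replicate 2 and 1 without any mutant library or male replicate 2 or 3, and the 5 lower became 3 without mutant replicate 2 or 3. The median log2 fold change of the list was 0.57 in MvF, 0.79 in IvF and 0.01 in MvI. The list shares 8 transcripts with the motor-related ones, described below, that the study chose on these libraries. All of the shared transcripts except AGAP000320-RA were called higher in MvF, so the higher calls of the list are not independent evidence.

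Axonemal dynein intermediate chains, which hold a dynein arm together, were among those with the smallest p in MvF. The transcript of Dynein intermediate chain 2, axonemal (AGAP011540-RA) averaged 391 ± 18.1 normalized counts in control females, 3371 ± 420 in mutants and 8875 ± 271 in males (SD, n = 3). It rose by 4.50 (standard error 0.19, edgeR adjusted p = 4.39e-06) in MvF, by 3.11 (0.18, 7.59e-05) in IvF and by 1.40 (0.17, 0.00177) in MvI on the log2 scale. Dynein intermediate chain 1, axonemal (AGAP008689-RB, with estimated counts that were not whole in 9 libraries) averaged 636 ± 233, 3337 ± 129 and 8017 ± 1349 in that order of groups.

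The list also held transcripts with the mutant highest, as in Tektin-2. The unnamed AGAP011539-RA averaged 500 ± 30.0 normalized counts in control females, 814 ± 27.6 in mutants and 79.7 ± 11.7 in males. On the log2 scale its fold change was −2.65 (standard error 0.18, edgeR adjusted p = 2.69e-05) in MvF, 0.70 (0.16, 0.0268) in IvF and −3.35 (0.18, 4.50e-05) in MvI. In all, 4 of the 38 were called higher in IvF and lower in MvI, against 0.364% of all tested. The others were AGAP005171-RA, AGAP001660-RA and AGAP006036-RA, which were singled out after their values were seen. Their log2 fold changes in MvF were −1.93, −0.50 and 0.05. Unlike Tektin-2, none of the 4 was called higher in MvF. The fifth transcript called lower in MvI, AGAP001672-RB, was not called in IvF and had a wide spread in *dsxF*+/+ *XX* (2103 ± 2101).

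The study's other motor-related transcripts, without the 10, numbered 29 (29 genes), all tested. Of these, 24 were called higher and 0 lower in MvF, 14 higher and 0 lower in IvF and 2 higher and 0 lower in MvI, by edgeR, with median log2 fold changes of 1.25, 0.83 and 0.41. Over all tested transcripts the shares called higher and lower were 11.7% and 18.1% in MvF, 4.18% and 6.87% in IvF and 1.3% and 6.09% in MvI. None was lower in any of these comparisons at an unadjusted p under 0.05 by edgeR or at the adjusted threshold by DESeq2 and limma-voom. The shares of all tested transcripts at those settings are not given here, and nothing is read from this. The study chose them on these libraries, so their direction is not independent evidence. They share 8 transcripts with the dynein list and 13 with the study's tubulin list, so the counts for these lists overlap. The smallest p in MvF belonged to the axonemal intermediate chains above and to the Meckelin-like transcript, from a family of proteins of the ciliary transition zone (log2 fold change 2.18, standard error 0.22, edgeR adjusted p = 1.49e-04).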

How the data were processed

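Reads were quantified by the authors with kallisto (version not given in the sources used here) with AgamP4 transcripts as the reference. The deposited values are estimated counts per transcript, scaled for neither depth nor length. Reads that fit several transcripts were divided by estimation. All 9 columns of values were assigned to samples, and 0 were left over. Counts were rounded to whole numbers, scaled by TMM and filtered with filterByExpr, which kept 12379 of 16066 transcripts. They were tested with edgeR 4.0.16 (quasi-likelihood test, R 4.3.3) in 1 fit of 3 groups, with p adjusted over all transcripts tested. Intervals (95%) come from this fit. Log2 CPM used a prior count of 0.5. Counts carry no molecular identifiers, so counting errors cover counting only. The fit was also run on simulated counts with the same biological coefficient of variation (36%) for every transcript. Real transcripts differ in spread, and the outcome of that run is not given here.

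The alternatives were DESeq2 1.42.0, limma-voom (limma 3.58.1), DESeq2 size factors, no filter, a minimum of 10 counts per library, sums per gene, fits of only the groups compared, a block for the replicate number or for the run of sample-sheet numbers, and leaving out each library.

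The members, lists and tests were chosen with earlier results of these data known. Named besides the members are the 2 transcripts and the 5 named transcripts most like their mean profile, and up to 3 list members with the smallest p in MvF. List members called against the majority were to be named where 3 or fewer. The reference table matched 0 identifiers, so names come from the paper's tables, positions and sequences are not reported, and doublesex and markers of other tissues were not analysed here.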

Additional observations from a re-analysis of the deposited data

How the results depend on the processing

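Over 18 alternatives (540 log2 fold changes of the 10 transcripts), 0 values moved by more than the spread between replicates. The alternatives reuse the same libraries, and leaving out 1 of 3 moves a group mean by less than that spread. The count of 0 was therefore likely beforehand, and nothing is concluded from it. CFAP44-like still moved from 1.88 to 2.64 in MvF without *dsxF*+/+ *XX* replicate 2. The MvF and IvF values kept their direction. In MvI, 4 values near 0 changed sign, namely Piercer 1 without mutant replicate 1 (−0.19), mutant replicate 3 (−0.12) or male replicate 3 (−0.27) and CFAP44-like without mutant replicate 3 (−0.07), and neither transcript was called there. No scaling shifted the median of all transcripts by over 0.1 log2 units. The median of the 10 ranged from 2.03 to 2.40 in MvF when a library was left out (highest without *dsxF*+/+ *XX* replicate 2), from 1.79 to 2.17 in IvF (2.17 without control female replicate 2, 2.03 without mutant replicate 2) and from 0.21 to 0.32 in MvI (highest without *dsxF*-/- *XX* replicate 2). With a library left out, 8 to 10 of the 10 were called higher in MvF, 7 to 9 in IvF and 0 to 1 lower in MvI (0 without *dsxF*-/- *XX* replicate 3 or *dsxF*+/+ *XY* replicate 3). The other alternatives gave 9 to 10 and 8 to 10 higher. The Tektin-2 call in MvF was lost with limma-voom, with no filter, with only the groups compared, with the replicate block and when any library but mutant replicate 3 was left out (log2 fold change 0.57 to 0.69). CFAP206-like lost its IvF call with the replicate block (1.21) and without each library except female replicate 1 and male replicate 2 (1.01 to 1.32). Kintoun lost its IvF call without female replicate 3 (0.71) or mutant replicate 1 (0.79) or 3 (0.68), and CFAP44-like its MvF call without female replicate 3 (1.78) or male replicate 2 (1.76) or 3 (1.79). Leaving out a library also leaves fewer samples. CFAP44-like was called in IvF by DESeq2, by limma-voom and with counts summed to genes.

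The dynein list had 10 to 19 transcripts called higher in MvF with a library left out (19 without *dsxF*+/+ *XX* replicate 2). In IvF it had 5 to 19 (19 without female replicate 2, 5 without female replicate 3, 6 without mutant replicate 1 or 3) and 20 by DESeq2, and the cause of that difference was not tested. In MvI it had 1 to 4 higher (4 without female replicate 2, 1 without any mutant library or male replicate 2 or 3) and 3 to 5 lower (3 without *dsxF*-/- *XX* replicate 2 or 3).

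Samples with the same replicate number did not regularly deviate together (r from −0.24 to 0.39 over the 9 pairs of libraries), but r was 0.39 in MvF replicate 2. A run of sample-sheet numbers is a block of adjacent numbers that was set here and is not a label of the study. By run, r was 0.17, 0.2 and 0.39 in MvF, and −0.24 to 0.17 in IvF and MvI. The runs group control female and mutant libraries as the replicate numbers do and differ only in the pairing of male libraries. The IvF values and the 0.39 in MvF are therefore the same by run and by replicate number. The main fit used neither the replicate number nor the run as a block. With the replicate number as a block, 9 of the 10 were called higher in MvF and 8 in IvF. The run of sample-sheet numbers as a block changed no call of the 10. Precision is limited by 3 libraries per group and, in Piercer 1 and CFAP44-like, by raw counts of 18 to 118 in *dsxF*+/+ *XX*.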

Other observations

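Tubulin-related transcripts were taken from the study's second list, drawn up from annotation and expression in male pedicels and testes. Without the 10, 135 of its transcripts were tested, and the list covers 107 other genes. edgeR called 36 higher and 15 lower in MvF, 19 higher and 4 lower in IvF and 1 higher and 5 lower in MvI, at an adjusted p under 0.05, with median log2 fold changes of 0.54, 0.30 and 0.16. As shares of the list, 26.7% were higher and 11.1% lower in MvF (11.7% and 18.1% of all tested), 14.1% and 2.96% in IvF (4.18% and 6.87%) and 0.741% and 3.7% in MvI (1.3% and 6.09%), so the lower calls in each comparison, and the higher calls in MvI, were below the shares over all transcripts. The list shares 13 transcripts with the motor-related ones that the study chose on these libraries, so its higher calls are not independent evidence. It shares 20 transcripts with the dynein list, 46.5% of that list and 13.2% of this one, so the lists are not separate evidence. Those with the smallest p in MvF have no name in the sources used here. AGAP001570-RA averaged 178 ± 51.9 normalized counts in control females, 852 ± 99.4 in mutants and 2886 ± 1392 in males (SD, n = 3). AGAP000592-RA averaged 3475 ± 992, 15998 ± 1768 and 20697 ± 4960 in that order. AGAP003271.R81 averaged 20537 ± 11412, 99821 ± 16509 and 224080 ± 66926. Estimated counts were not whole in 9 libraries for AGAP001570-RA and in 4 for AGAP000592-RA, so part of their reads was divided with other transcripts.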
